A study of Mus musculus with 7 samples.

Results

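The transcriptome of the normal tibialis anterior (TA), the fast-twitch muscle at the front of the lower leg, was described from the wild-type (WT) arm of a study of the fast form of myosin-binding protein C (fMyBP-C, gene Mybpc2). The members were the 4 WT libraries of the 7 libraries in the series, chosen by their labelled genotype, and all 12239 genes listed for them. Each library came from the TA of a male mouse of the FVBN background aged 5 to 6 months, with free access to a standard diet, no treatment and no transgene. The libraries are called WT1 to WT4 by their labelled replicate numbers. The other 3 libraries, from mice without fMyBP-C, were not compared here. The labels give nothing that divides the WT animals, such as cage, day or hour of dissection, so the values below are descriptions of 4 libraries in 1 group and carry no p-value. Whole muscle was used, so fewer cells of a type and less RNA per cell cannot be told apart.

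Values were log2 of CPM, the counts of a gene per 1000000 reads. The table held 14929214 reads for WT1, 15464499 for WT2, 15226132 for WT3 and 4683853 for WT4. WT4 was thus 3.3 times shallower than the deepest library, and 75 of the 12239 genes had 0 reads in it, against 3, 2 and 1 gene in WT1, WT2 and WT3. A log2 value of 3 stood for about 122 reads in WT1, 119 in WT2, 122 in WT3 and 34.7 in WT4. Spread was therefore read in the 8055 genes with a mean of at least 3, and it is given with and without WT4.

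Skeletal muscle fibres are filled with sarcomeres, in which thick filaments of myosin pull on thin filaments of actin. Fast fibres split ATP quickly, cycle calcium quickly and draw on phosphocreatine and glycogen, whereas slow fibres rely on mitochondria and myoglobin and use other isoforms of nearly every sarcomere protein. The myosin heavy chain names the fibre: Myh7 marks type I, Myh2 type IIa, Myh1 type IIx and Myh4 type IIb, from the slowest and most oxidative to the fastest and most glycolytic. The mouse TA is known as a muscle of mainly IIb and IIx fibres. Whether the libraries held such a muscle was read from a list of fast fibre genes and a list of slow fibre genes. The 14 fast fibre genes took 19.4% ± 1.27 (SD, n = 4) of all reads, and the 12 slow fibre genes took 0.0659% ± 0.0428 (SD, n = 4), so the labelled tissue matched its defining genes in every library. The slow list includes the IIa chain Myh2, which alone took 0.0494% ± 0.0352.

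The RNA of this muscle was concentrated in few genes. The 11 most abundant genes held 25% of the reads, 132 genes held 50%, 1170 held 75% and 3561 held 90%. The top 10 genes alone took 24.1% of the reads in WT1, 25.7% in WT2, 23.7% in WT3 and 22.7% in WT4. That share varied little between animals, with a mean of 24.1% ± 1.26 (SD, n = 4).

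By reads, before any division by length, Myh4, the IIb myosin heavy chain, had the highest mean log2 value, with 15.44, 15.90, 15.40 and 15.45 in WT1 to WT4 and 4.76% ± 0.782 (SD, n = 4) of the reads. Atp2a1, the fast sarcoplasmic reticulum calcium pump SERCA1, followed with 15.51, 15.44, 15.44 and 15.49 and 4.48% ± 0.230. Acta1, skeletal alpha-actin of the thin filament, had 15.22, 15.36, 15.25 and 15.21 and 3.87% ± 0.214. Atp2a1 was above Myh4 in WT1, WT3 and WT4, and Myh4 led the mean through WT2. Atp2a1 and Acta1 lay within 0.14 log2 units across all 4 animals. Ckm, the muscle creatine kinase that rebuilds ATP from phosphocreatine, took 2.17% ± 0.323 of the reads. Aldoa, the glycolytic aldolase, took 2.01% ± 0.0651. Tnnt3, fast troponin T, and Tpm1, alpha-tropomyosin, form part of the switch that lets calcium start contraction, and took 1.86% ± 0.202 and 1.65% ± 0.143. Ttn, the giant spring protein titin, reached 1.42% ± 0.378. It had 13.47, 13.72 and 13.57 in WT1 to WT3 and 14.37 in WT4, the highest of the 4. Pygm, the muscle glycogen phosphorylase, and Tnnc2, fast troponin C, closed the top 10 with 0.948% ± 0.0821 and 0.898% ± 0.0884.

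Places 11 to 20 were held by Pvalb, the calcium buffer parvalbumin, Neb, the thin filament ruler nebulin, A930016O22Rik, the fast light chains Myl1 and Mylpf, the fast Z-disc alpha-actinin Actn3, the IIx heavy chain Myh1, Mybpc2, fast troponin I Tnni2, and carbonic anhydrase 3 (Car3). Their shares ran from 0.893% ± 0.133 for Pvalb to 0.578% ± 0.175 for Car3 (SD, n = 4). A930016O22Rik is annotated on the strand opposite to Ckm and shares 451 exon bases with it, and whether counting used the strand is not given in the sources used here, so its reads and those of Ckm cannot be told apart. Mybpc2 itself, the gene that the study targeted in other mice, had 12.68, 12.85, 12.41 and 12.51 in WT1 to WT4. It stood at rank 18, with 0.620% ± 0.0852 of the reads (SD, n = 4).

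Long transcripts collect more fragments than short ones, so levels were compared between genes only after division by transcript length. On that per-kilobase scale Acta1 came first with 6.31% of the summed level, followed by Tnnt3 with 4.06%, Aldoa with 3.06%, Atp2a1 with 3.04% and Tnnc2 with 3.02%. Myh4 held 1.85% on the per-kilobase scale, and titin, whose transcript is the longest of all, 0.0307%. The short transcript of Mb, the oxygen store myoglobin, entered the 20 highest with 0.862%. Concentration was stronger on this scale, with 72 genes holding 50% of the summed level and the top 10 holding 29.45%.

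By function, the thin filament was the largest class, with 10.4% of the reads in WT1, 11.1% in WT2, 10.5% in WT3 and 10.2% in WT4, a mean of 10.55% ± 0.388 (SD, n = 4). Proteins of the sarcoplasmic reticulum and of calcium handling took 7.82% ± 0.318, glycolysis and glycogen metabolism 6.74% ± 0.229 and the myosin heavy chains 5.56% ± 0.8286. The Z-disc and costamere, which anchor the filaments, took 4.24% ± 0.146, and titin with the M-band proteins and MyBP-C took 3.01% ± 0.197. Phosphagen and adenine nucleotide buffering, led by Ckm, took 2.72% ± 0.344. The myosin light chains, a class that here includes the light chain kinases Mylk2 and Mylk4, took 2.02% ± 0.332. Mylk4 alone took 0.273% ± 0.206. All thick and thin filament classes together held 20.7% of the reads in WT1, 22.9% in WT2, 20.5% in WT3 and 20.5% in WT4. This sum was thus highest in WT2 and nearly level in the other animals. It includes the kinases named above, and Mylk4 had 1220, 2120, 1810 and 6150 CPM in WT1 to WT4, so part of the WT4 value is not filament protein.

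Mitochondrial energy supply was smaller by reads. Nuclear genes of oxidative phosphorylation took 3.31% in WT1, 2.79% in WT2, 3.43% in WT3 and 3.65% in WT4, and the TCA cycle with fatty acid oxidation 2.23%, 1.83%, 2.33% and 2.00%. WT2 had the lowest share in both. Oxidative phosphorylation subunits are short, and per kilobase that class rose to 6.67%, beside 7.98% for glycolysis and 17.4% for the thin filament. Transcripts of the mitochondrial genome itself were not analysed here. The protein synthesis machinery was a minor part, with 1.02% ± 0.0350 for the 79 cytosolic ribosomal proteins and 1.13% ± 0.0532 for translation factors (SD, n = 4). The proteasome took 0.462% ± 0.0216, enzymes that attach or remove ubiquitin 1.74% ± 0.0283 and chaperones 0.912% ± 0.0212. The extracellular matrix was smaller still, with 0.102% ± 0.0108 for 32 collagens and 0.296% ± 0.0251 for 66 other matrix genes. The 1108 genes placed in the 21 classes held 55.3% of the reads, and the remaining 11131 genes held 44.7%. Counting error was small beside these differences, since the largest 95% Wilson half-width of a class share in a library was 0.027 percentage points; such intervals cover counting error only.

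**Figure D1:**
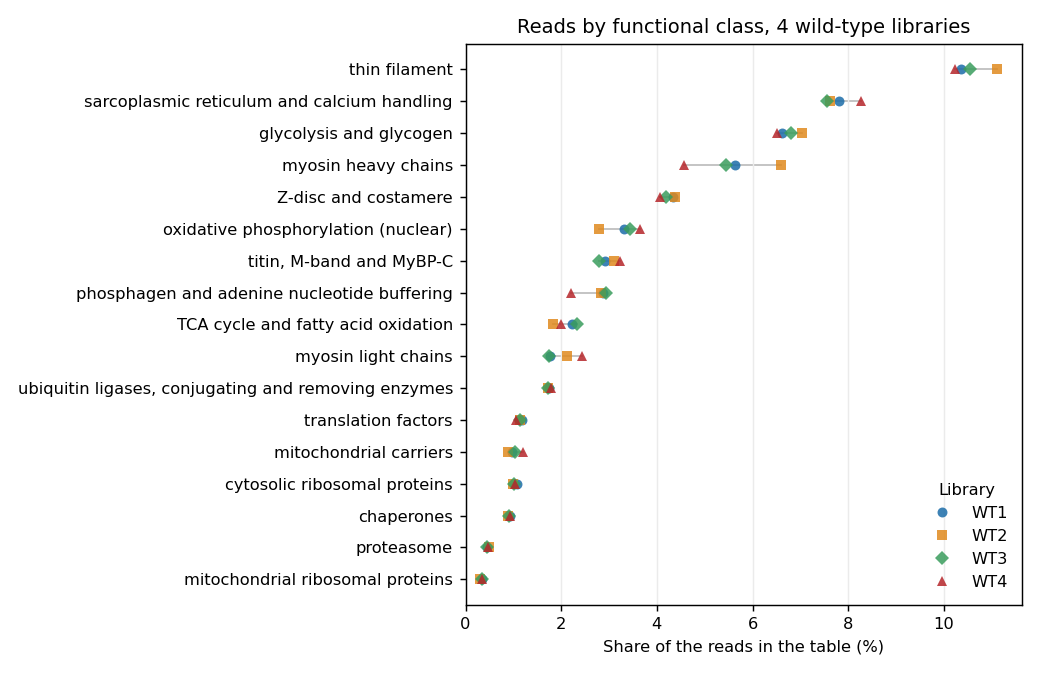
Share of reads of the larger functional classes in percent, with 1 symbol for each of the 4 WT libraries and a grey line from the lowest to the highest. The thin filament class leads with 10.2% to 11.1%, and the myosin heavy chains spread most widely among the large classes, from 4.57% in WT4 to 6.59% in WT2.

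Within the gene families compared, the fast member led, and in some it nearly excluded the others. Among the 6 sarcomeric myosin heavy chains, compared per kilobase, Myh4 made up 81.2% of the family level in WT1, 89.9% in WT2, 80.2% in WT3 and 92.3% in WT4. Myh1 took 17.3%, 9.53%, 18.3% and 7.50%, and Myh2 1.40%, 0.481%, 1.41% and 0.178%. The libraries fell into the same order for both minor fast chains, with WT1 and WT3 alike, WT2 lower and WT4 lowest. Myh7, the slow chain, had 18, 16, 27 and 0 reads, and the embryonic chain Myh3 38, 14, 46 and 0 reads. Among calcium pumps Atp2a1 held 99.92% ± 0.00702 (SD, n = 4) of the family level, beside its slow counterpart Atp2a2. Fast troponin T and fast troponin C each held a mean of 99.99% of their families. MyBP-C was more mixed: the fast paralog Mybpc2 held 70.2% ± 5.17 and Mybpc1, the slow skeletal paralog, 29.8% ± 5.17 (SD, n = 4). Tropomyosin was also shared, with 69.5% ± 3.81 for Tpm1 and 30.4% ± 3.78 for Tpm2. Lactate dehydrogenase, which interconverts pyruvate and lactate, was 96.8% ± 2.54 Ldha, the muscle form.

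The 200 bases before the RefSeq start of Acta1 and of the adjacent heavy chain genes Myh4, Myh1 and Myh2 are shown on GRCm38.p6, since these genes span the abundance range from the leading transcripts to a heavy chain that differed between animals. Capitals mark matches, on either strand, to the TATA box TATAAA (written TTTATA where it lies on the other strand), to the E-box CAGCTG and to the CArG box, the element bound by serum response factor; no matches overlapped.
Acta1 (chr8:123894776-123894975, reverse strand): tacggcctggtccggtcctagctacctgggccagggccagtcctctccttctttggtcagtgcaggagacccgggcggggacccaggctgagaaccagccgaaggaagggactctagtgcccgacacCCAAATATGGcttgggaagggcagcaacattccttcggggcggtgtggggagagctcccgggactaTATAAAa
Myh4 (chr11:67237612-67237811, forward strand): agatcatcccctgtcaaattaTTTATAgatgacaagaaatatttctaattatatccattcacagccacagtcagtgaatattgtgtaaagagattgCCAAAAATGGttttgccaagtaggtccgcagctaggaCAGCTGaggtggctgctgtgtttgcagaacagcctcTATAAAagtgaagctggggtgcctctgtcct
Myh1 (chr11:67199902-67200101, forward strand): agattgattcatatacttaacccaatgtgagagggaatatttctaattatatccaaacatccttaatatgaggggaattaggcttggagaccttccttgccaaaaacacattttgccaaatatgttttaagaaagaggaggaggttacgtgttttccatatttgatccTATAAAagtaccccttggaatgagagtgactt
Myh2 (chr11:67170827-67171026, forward strand): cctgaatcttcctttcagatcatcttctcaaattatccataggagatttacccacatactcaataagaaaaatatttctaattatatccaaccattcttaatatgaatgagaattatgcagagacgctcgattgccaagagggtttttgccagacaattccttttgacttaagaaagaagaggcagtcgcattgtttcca
The window of Acta1 held 1 TATAAA and 1 CArG box, that of Myh4 2 TATAAA, 1 CAGCTG and 1 CArG box, that of Myh1 1 TATAAA, and that of Myh2 none of these letters. Of all 32843 windows of the same length, 9.96% held TATAAA, 10.9% CAGCTG and 1.18% a CArG box. Of the 14 fast fibre genes 10 had a window, and 4 of them held CAGCTG (Atp2a1, Casq1, Myh4 and Mylpf) and 3 TATAAA (Myh1, Myh4 and Myl1). A match describes letters only, and a window without one says nothing of the factor.

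Other cell types left small but measurable shares, summed over marker lists. Endothelial markers took 0.0859%, 0.0733%, 0.0988% and 0.0766% of the reads in WT1 to WT4, led by Cdh5, the adhesion protein of vessel walls. Fibroblast and fibro-adipogenic progenitor markers summed to 0.118% ± 0.00331 (SD, n = 4). Macrophage markers took 0.00844% ± 0.00125 and satellite cell markers, of the muscle stem cells, 0.00728% ± 0.00236. The adipocyte list summed to 0.519%, 0.618%, 0.455% and 0.881%, but most of that came from Car3, which muscle fibres also express. Its defining members were near the detection limit: Adipoq, the fat cell hormone adiponectin, had 11, 25, 1 and 13 reads, and Plin1, the coat protein of fat droplets, 9, 15, 1 and 4 reads. For scale, 3 reads were 0.195 to 0.200 CPM in WT1 to WT3 and 0.683 CPM in WT4.

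Animal-to-animal spread came next. Over the 8055 genes with a mean log2 of at least 3, the median SD was 0.273 over the 4 libraries and 0.112 over WT1, WT2 and WT3. Counting error alone corresponded to a median SD of 0.0862 and 0.0669, so most of the difference between the 4 libraries lay above it. In the 6 pairs of libraries the median chi-square per gene was 3.1 to 18.4 times that of counting error alone, so no library was a copy of another. A gene was called variable when its highest library exceeded its lowest by more than 1 log2 unit. By that rule 1695 of 8055 genes were variable, which is 21.0%, and over WT1 to WT3 alone 112 genes, which is 1.39%. WT4 was the library farthest from the other 3 in 1581 of the 1695 variable genes (93.3%). Against the mean of the other 3 libraries, WT4 lay more than 1 log2 unit above in 730 genes (9.06%) and below in 434 (5.39%). The same counts were 17 (0.211%) and 28 (0.348%) for WT1, 5 (0.0621%) and 40 (0.497%) for WT2, and 42 (0.521%) and 53 (0.658%) for WT3. The mean used as filter includes WT4, so some genes high in WT4 pass only through it, and some low in it drop out. Without a filter WT4 lay above in 1205 genes and below in 1381, so the excess above depends on the filter. Most of the variation in this group thus belonged to WT4, while WT1 to WT3 differed in a small set of genes.

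The functional groups were ordered by the median SD of their members at a mean log2 of at least 3, for the 38 lists with 5 or more such members. The lists were chosen with earlier results of these data known, so the order describes these lists only. Some share members, such as Myh2 in the slow fibre and heavy chain lists. The slow fibre, heavy chain and tendon lists had 6, 5 and 5 such members. The slow fibre genes came first with 1.35 over the 4 libraries and 0.677 over WT1 to WT3, against 0.273 and 0.112 for all genes. The myosin heavy chains had 0.663 and 0.332, the tendon markers 0.652 and 0.647 and the fasting and glucocorticoid genes 0.621 and 0.260. Interferon response genes had 0.533 and 0.347, the collagens 0.526 and 0.262 and the circadian clock genes 0.489 and 0.333. With the lowest medians over 4 libraries, the fast fibre genes had 0.195 and 0.164, phosphagen metabolism 0.187 and 0.112, heat shock genes 0.195 and 0.0957 (though 4 of 16 were variable over 4 libraries and their summed share was 0.557%, 0.514%, 0.515% and 0.730% in WT1 to WT4), glycolysis 0.208 and 0.136 and the cytosolic ribosomal proteins 0.217 and 0.0728. The fast fibre, phosphagen, glycolysis and ribosomal lists thus had medians below that of all genes over 4 libraries, and lists of minor fibre-type, clock, fasting and interferon genes had medians above it. Over WT1 to WT3 the fast fibre and glycolysis lists lay above the median of all genes as well, and phosphagen metabolism lay at it. The summed share of phosphagen metabolism was nevertheless lower in WT4, at 2.2% beside 2.84% to 2.95% in the other animals.

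**Figure D2:**
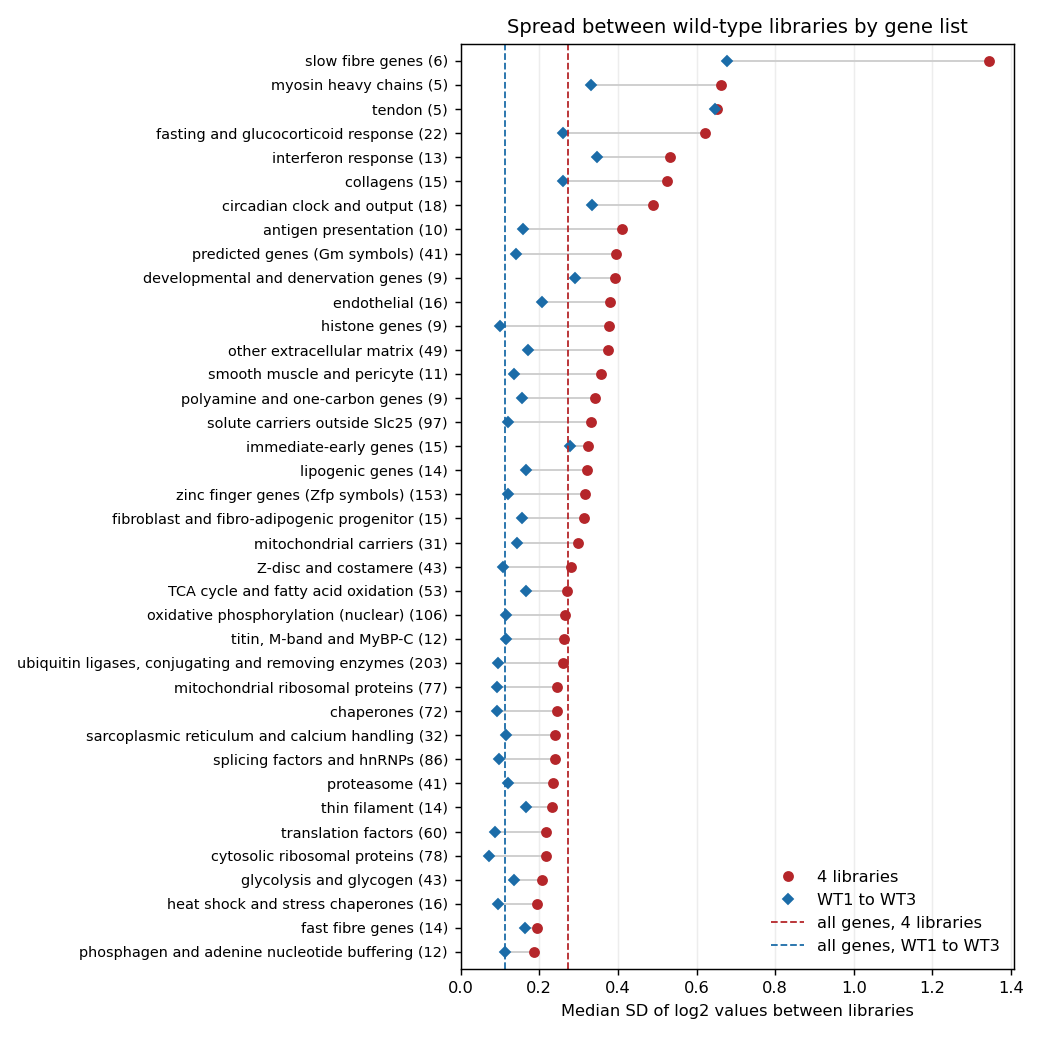
Median SD of log2 CPM of each gene list over the 4 WT libraries and over WT1 to WT3, with the number of members at a mean log2 of at least 3 in brackets and vertical lines at the medians of all 8055 genes (0.273 and 0.112). The slow fibre genes lie farthest to the right, at 1.35 and 0.677, and the tendon markers hardly move when WT4 is left out.

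The list with the widest spread was that of the slow fibre genes, which here includes the IIa heavy chain Myh2. Of the 12 slow fibre genes 11 had their lowest value in WT4 and the next lowest in WT2, an order seen in 19.5% of all genes; Tpm3, slow alpha-tropomyosin, was the exception. The order was not resolved in all of them. Both libraries were under the 3-read floor of WT4 in Tnnt1 and Tnnc1, they differed little in Pln and Atp2a2, and in Myh7 WT2 and WT1 had 16 and 18 reads. Of the 6 slow fibre genes at a mean log2 of at least 3, 4 were variable over the 4 libraries and 4 over WT1 to WT3, against 21.0% and 1.39% of all genes. Myh2 had 9.60, 8.37, 9.59 and 6.45 in WT1 to WT4, a spread of 8.88-fold between the highest and the lowest animal. Myoz2, a calcineurin-binding protein of the slow Z-disc, had 4.28, 2.73, 4.60 and 0.77. Ankrd2, a stretch-responsive protein of slow fibres, had 4.71, 2.83, 4.36 and 1.26. All of them were high in WT1 and WT3, lower in WT2 and lowest in WT4. Atp2a2, the slow calcium pump, hardly differed between the animals, with 5.48, 5.45, 5.63 and 5.38, and Tpm3 had 4.92, 4.60, 5.42 and 5.10. Csrp3, muscle LIM protein, had 310, 69, 159 and 0 reads, so that WT4 was at least 14.5-fold lower than the mean of the other libraries, with the floor set at 3 reads in WT4. Tnnt1, slow troponin T, had 42, 6, 101 and 0 reads and was at least 2.92-fold lower in WT4.

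Oxidative genes outside the slow list had the same order among the first 3 animals. WT2 was the lowest of WT1 to WT3 in all 12 slow fibre genes, in 48 of 55 genes of the TCA cycle and fatty acid oxidation and in 75 of 108 of oxidative phosphorylation, against 32.2% of all genes. Mb, singled out after its values were seen, had 12.58, 11.71, 12.40 and 11.31. Ldhb, the heart-type lactate dehydrogenase, had 6.94, 5.34, 7.09 and 4.00. Idh2, mitochondrial isocitrate dehydrogenase, had 7.60, 6.52, 7.95 and 5.65. These 3 genes followed the heavy chains, with WT2 and WT4 below WT1 and WT3. The oxidative phosphorylation genes as a group were not low in WT4. It was the highest library in 58 of the 108, against 34% of all genes, and the lowest in 34, against 51.6%. In the 55 genes of the TCA cycle and fatty acid oxidation WT4 was highest in 19 and lowest in 25. The core enzymes were steadier: Cs, citrate synthase, had 10.57, 10.48, 10.75 and 10.58, and Atp5b, of ATP synthase, 11.96, 11.71, 11.98 and 11.54. In the opposite direction, WT2 was the highest of WT1 to WT3 in 12 of 14 fast fibre genes, 22 of 33 sarcoplasmic reticulum genes and 35 of 46 proteasome genes, against 36.8% of all genes. Pfkfb3, which makes the activator of the glycolytic enzyme phosphofructokinase, had 7.90, 9.47, 8.87 and 5.71, highest in WT2 but lowest in WT4.

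**Figure D3:**
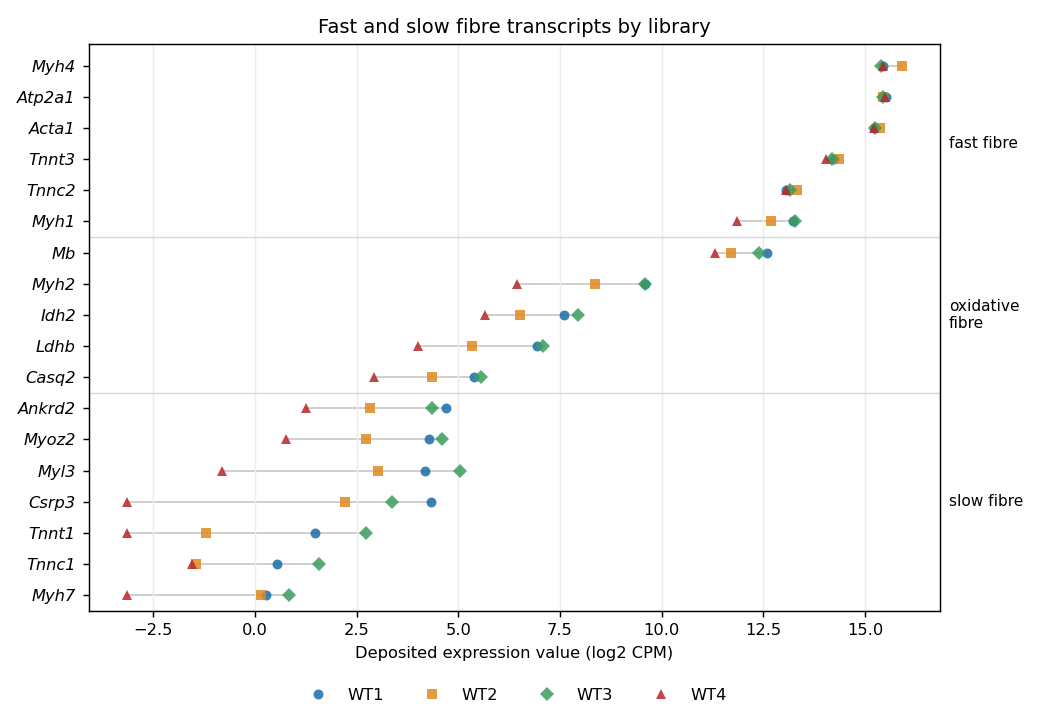
Log2 CPM of fast fibre, slow fibre and oxidative genes in the 4 WT libraries, with 1 symbol per library and a grey line from the lowest to the highest for each gene; points at -3.14 are 0 reads in WT4. Fast genes span from 0.07 log2 units for Atp2a1 to 1.43 for Myh1. The slow and oxidative genes drawn fan out with WT1 and WT3 to the right, WT2 lower and WT4 lowest. Myh2, drawn with the oxidative genes, runs from 9.60 to 6.45.

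Spread within the sarcomere was not limited to fibre-type genes. Actc1, cardiac alpha-actin, which is also made in developing and regenerating muscle, had the widest range of any gene at this level in the deposited values. It stood at 3.31 in WT1, 2.24 in WT2, 6.64 in WT3 and 7.17 in WT4, a 30.6-fold spread. After the GC correction described below, the range was 5.25 log2 units for Ddit4 and 5.14 for Actc1. Even at its highest Actc1 was 0.371% of sarcomeric actin per kilobase, the rest being Acta1. Myh8, the perinatal heavy chain, had 6.40, 5.64, 5.05 and 3.73. The libraries high in Actc1 were thus the low ones in Myh8.

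Clock genes differed between the animals. The clock is a feedback loop in which Clock, Npas2 and Arntl (BMAL1) switch on the Per, Cry and Nr1d genes and output factors such as Dbp, whose products in turn act on Arntl and its partners, so that both arms peak at opposite hours. Of the 18 clock genes at a mean log2 of at least 3, 11 were variable over the 4 libraries, against 21.0% of all genes, and 4 over WT1 to WT3, against 1.39%. Per2, a repressor of the loop, had 1.57, 4.16, 3.73 and 5.42 in WT1 to WT4. Dbp, which shares 539 exon bases with Sphk2, had 4.70, 6.97, 6.83 and 5.74. Ciart, another repressor, had 0.42, 3.71, 3.09 and 3.05. WT1 was lowest in each of these genes, with a difference of -2.87 log2 units from the mean of the other 3 in Per2. Arntl and Npas2 of the positive arm lay the other way, and the values of Clock are not reported here. Arntl, named after its values were seen, had 4.93, 4.26, 4.09 and 3.90. Npas2, below the level used for spread, had 39, 10, 11 and 0 reads. Both were highest in WT1. WT4 was the low library for others, with 7.88, 8.30, 8.49 and 6.95 for the repressor Nr1d1 and 7.67, 8.23, 7.95 and 6.86 for Bhlhe40. Of the 18 genes, WT1 lay more than 1 log2 unit below the other animals in 3, against 0.348% of all genes, and above in 0, against 0.211%. WT4 lay below in 3, against 5.39%, and above in 3, against 9.06%. Among WT1 to WT3, WT1 was lowest in 12 of the 20 clock genes, against 33.7% of all genes. The hours of dissection are not given in the sources used here, so their part in this pattern was not tested.

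The E-box CACGTG is the letters that the Clock and Arntl pair binds. Among the clock genes, Ciart held it most often in the 200 bases before its RefSeq start on GRCm38.p6, and its sequence is shown with the matches in capitals.
Ciart (chr3:95882229-95882428, reverse strand): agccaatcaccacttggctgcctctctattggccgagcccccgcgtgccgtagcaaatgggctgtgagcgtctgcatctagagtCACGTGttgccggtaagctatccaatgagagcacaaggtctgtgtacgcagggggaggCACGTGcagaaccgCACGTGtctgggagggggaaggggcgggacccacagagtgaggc
Ciart held 3 matches. Of the 20 clock genes 17 had a window, and 5 genes held CACGTG (Bhlhe41, Ciart, Cry1, Per1 and Tef), beside 5.26% of all windows of the same length. Of these 5, Cry1 was higher and Ciart, Bhlhe41 and Tef were lower in WT1 than in both WT2 and WT3. Per1 lay at 5.21, 5.89 and 5.18 in WT1 to WT3.

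Immediate-early genes, which respond within minutes to activity, handling or injury, were high in WT3. Egr1 had 4.04, 3.59, 6.68 and 2.59 in WT1 to WT4. Fos had 75, 48, 250 and 4 reads, and Junb had log2 values of 3.35, 3.49, 4.88 and 1.51. WT3 was the highest and WT4 the lowest library in all of these. Jun, of the same family, and Nr4a1 did not share the pattern, with 6.65, 6.58, 6.61 and 6.76 for Jun and 7.46, 7.69, 7.75 and 7.89 for Nr4a1. Among WT1 to WT3, WT3 was highest in 15 of the 29 listed genes and WT2 lowest in 21, against 34.2% and 32.2% of all genes. Of the 15 at a mean log2 of at least 3, 6 were variable over 4 libraries and 4 over WT1 to WT3, against 21.0% and 1.39% of all genes.

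Fasting and glucocorticoid genes set WT4 apart. Of the 22 at a mean log2 of at least 3, WT4 lay more than 1 log2 unit above the other animals in 9, against 9.06% of all genes, and below in 1, Cish, against 5.39%. The 9 were Cebpd, Ddit4, Foxo1, Gadd45g, Glul, Klf15, Per1, Ucp3 and Zbtb16. Of these, at least Ddit4 and Cebpd had a mean below 3 in WT1 to WT3 and reached that level only through WT4. Ddit4, an inhibitor of the growth kinase mTORC1, had 2.51, 1.73, 2.49 and 6.55, so that WT4 was 19.7-fold above the mean of the others. Glul, glutamine synthetase, had 7.13, 6.72, 6.64 and 9.49. Both had 1 high library against 3 close ones. Other members did not move with them. Sgk1, a glucocorticoid-induced kinase, had 8.19, 8.30, 8.37 and 8.27. The ubiquitin ligase Fbxo32 (atrogin-1), a driver of muscle protein loss, had 8.82, 8.63, 8.53 and 8.07, lowest in WT4. Pdk4, the kinase that shuts off pyruvate oxidation in fasting, had 8.95, 7.84, 7.37 and 9.01, high in WT1 and WT4.

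**Figure D4:**
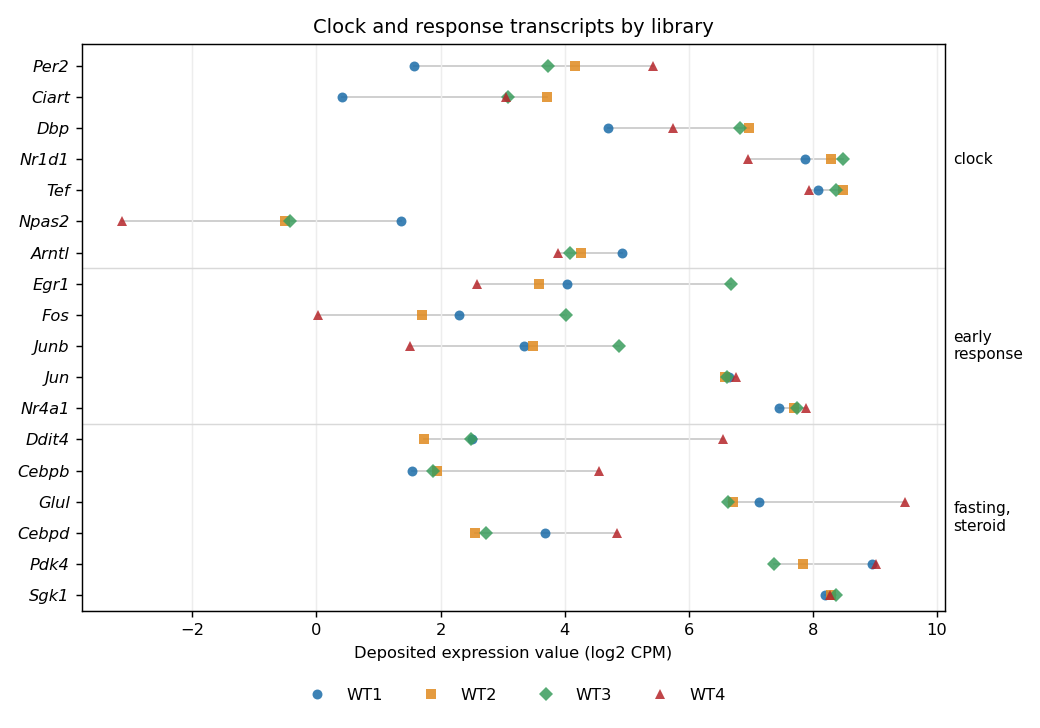
Log2 CPM of circadian clock, early response and fasting or steroid-responsive genes in the 4 WT libraries, with 1 symbol per library and a grey line from the lowest to the highest for each gene; Npas2 had 0 reads in WT4. WT1 lies leftmost for Per2, Ciart and Dbp, WT3 rightmost for Egr1, Fos and Junb, and WT4 rightmost for Ddit4 (6.55), Cebpb (4.56) and Glul (9.49).

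Several lists of non-fibre cells also moved with WT3. Of the tendon markers 9 of 11 were lowest of WT1 to WT3 in that library, against 34.1% of all genes, and all 5 at a mean log2 of at least 3 were variable over 4 libraries and 3 over WT1 to WT3, against 21.0% and 1.39%. Fmod, fibromodulin of the tendon matrix, had 6.17, 5.65, 4.32 and 5.84. Comp, cartilage oligomeric matrix protein, had 83, 98, 15 and 15 reads, or log2 values of 2.44, 2.72, 0.01 and 1.82. The tendon list also holds Egr1, which was highest in WT3, and its summed share was 0.0216%, 0.0200%, 0.0209% and 0.0262%. Schwann cell and myelin markers ran the other way, with all 9 highest of WT1 to WT3 in WT3, against 34.2% of all genes, and summed shares of 0.00740%, 0.00729%, 0.0135% and 0.0128%. Pmp22, a protein of peripheral myelin, had 4.47, 4.36, 4.87 and 5.77, highest in WT4. Among WT1 to WT3, WT3 was thus low in tendon markers and high in nerve markers. How much tendon or nerve each dissected muscle kept was not tested.

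Of the 10 adipocyte genes, 4 were lowest of WT1 to WT3 in WT3, near the 34.1% of all genes, namely Adipoq and Plin1 with 1 read each, Car3, and Cfd with 3 reads, the fat cell protease adipsin, beside 40, 57 and 21 reads for Cfd in WT1, WT2 and WT4. Fabp4, a lipid carrier that endothelium also makes, did not follow, with 7.28, 7.33, 7.39 and 8.48. Endothelial markers were highest of WT1 to WT3 in WT3 in 13 of 16 genes, against 34.2% of all genes. Interferon response genes had the same tendency, with 26 of 32 highest of WT1 to WT3 in WT3, against the same 34.2%. Of the 13 interferon genes at a mean log2 of at least 3, 10 were variable over 4 libraries and 5 over WT1 to WT3, against 21.0% and 1.39% of all genes. Iigp1, an interferon-induced GTPase, had 127, 119, 345 and 18 reads, or log2 values from 2.07 in WT4 to 4.49 in WT3. Gbp2, also an interferon-induced GTPase, was highest in WT4, with 3.15, 2.78, 3.94 and 5.15.

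The genes with the widest range among WT1 to WT3 alone were B230312C02Rik, Actc1, Egr1, Tmem100, Per2, Dbp, Dkk3, Gm4737, Plin5 and Pla2g4e. Tmem100, a membrane protein of vessels and neurons, had 6.64, 5.56, 3.89 and 5.82, and Dkk3, a secreted protein of the Dickkopf family, 6.47, 6.08, 4.26 and 6.12. Pla2g4e, a calcium-dependent phospholipase, had 6.94, 7.22, 5.24 and 7.58. WT3 was the low library in each of these. B230312C02Rik had 0.84, 2.45, 5.31 and 3.85, and was highest in WT3. Plin5, the droplet protein that joins fat stores to mitochondria, had 4.63, 2.58, 3.81 and 2.59, low in WT2 and WT4 like the slow fibre genes.

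WT4 was examined separately. The genes in which it lay farthest above the other animals were Ddit4, Gm12338, Hmgn5, Cox17, 1810022K09Rik, Ccdc73, Igfbp7, Ndufc1, Rpl37rt and Actc1. Of these, Ddit4, Ccdc73 and Rpl37rt reached a mean log2 of at least 3 only through WT4. Hmgn5, a nucleosome-binding protein, had 3.84, 3.48, 3.95 and 7.41, a 12.6-fold difference from the mean of the others. Cox17, the copper chaperone of cytochrome oxidase, had 4.93, 4.97, 4.88 and 8.32. Ndufc1, a subunit of complex I, had 6.09, 6.03, 6.12 and 9.31. In these genes WT1 to WT3 agreed within 0.47 log2 units and WT4 stood alone. Cox17 shares 257 exon bases with another annotated gene, Gm21987, and Igfbp7 shares 85 with Polr2b, so those counts are uncertain. The same holds for Ccdc73, which shares 82 exon bases with Eif3m, and for 1110065P20Rik, which shares 721 with Mtf1 and 488 with Yrdc. Other genes named above carry the same doubt, such as Atp2a1 (763 with Rabep2), Tnnc2 (592 with Ube2c) and Myh1 (515 with Myhas). So do Cebpd (562 with Spidr), Nr1d1 (263 with Thra), Myh2 (237 with 9430073C21Rik) and Junb (173 with Prdx2). Of 106 oxidative phosphorylation genes at a mean log2 of at least 3, WT4 lay above in 21, against 9.06% of all genes, and 28 were variable, against 21.0%, but 1 over WT1 to WT3, against 1.39%. The 21 had a median transcript of 738 bases and the other 85 of 1110 bases, with median GC contents of 47.2% and 51.6%.

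Abundant muscle genes were among those high in WT4. Trdn, triadin of the calcium release complex, had 10.61, 10.84, 10.57 and 13.29, and was 6.14-fold above the mean of the others. Mylk4, a myosin light chain kinase, had 10.25, 11.05, 10.83 and 12.59. Neb, with a mean of 13.02, was 1.95-fold and Ttn 1.72-fold above the others in WT4. Jchain, a component of secreted antibodies, had 15, 11, 4 and 53 reads, although WT4 was the shallowest library. The genes in which WT4 lay farthest below were Myoz2, Pfkfb3, Bcl6b, Myh2, Ankrd2, S1pr3, Ldhb, Col5a3, Junb and 1110065P20Rik, of which Myoz2, Myh2 and Ankrd2 are in the slow fibre list. Pfkfb3 was 8.23-fold lower than the mean of the others, and Bcl6b, a transcriptional repressor of endothelium, 7.32-fold. Cdh15, M-cadherin of satellite cells, had 4.73, 4.93, 4.66 and 2.75, and the satellite cell list summed to 0.00914%, 0.00800%, 0.00816% and 0.00382%.

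Base composition moved with the libraries, most widely with WT4. Among the genes poorest in GC (10% of them, 31.0% to 41.8%) the median difference of WT4 from the other animals was 0.48 log2 units, and among the richest (58.0% to 69.1%) it was -0.54. In the poorest set 20.8% of genes lay above and 1.9% below, and in the richest 3.6% and 16.3%. WT3 ran the other way, from -0.24 to 0.26, and since each library is set against the others these slopes are not independent. Transcript length gave no such slope, with medians of -0.16 to 0.09 over its deciles, but 16.7% of the shortest 10% of genes lay above in WT4, beside 6.8% to 10.7% in the other deciles. When the GC trend of each library was replaced by the mean trend, WT4 lay below in 222 genes in place of 434 and above in 705 in place of 730. Leading differences kept their direction: Ddit4 went from 4.30 to 4.76, Trdn from 2.62 to 2.22, Cox17 from 3.40 to 3.28, Myh2 from -2.73 to -2.45 and Pfkfb3 from -3.04 to -2.92. Others shifted towards 0 or away from it by over 0.5 log2 units. Junb went from -2.40 to -1.77, Col5a3 from -2.41 to -1.82, 1110065P20Rik from -2.31 to -1.48 and Cebpb from 2.77 to 3.56. The difference of Ckm shrank from -0.37 to -0.08, and that of Myh4 went from -0.12 to 0.12. With all libraries thinned to the depth of WT4, it lay above in 728 genes and below in 437. The part of library preparation was not tested.

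**Figure D5:**
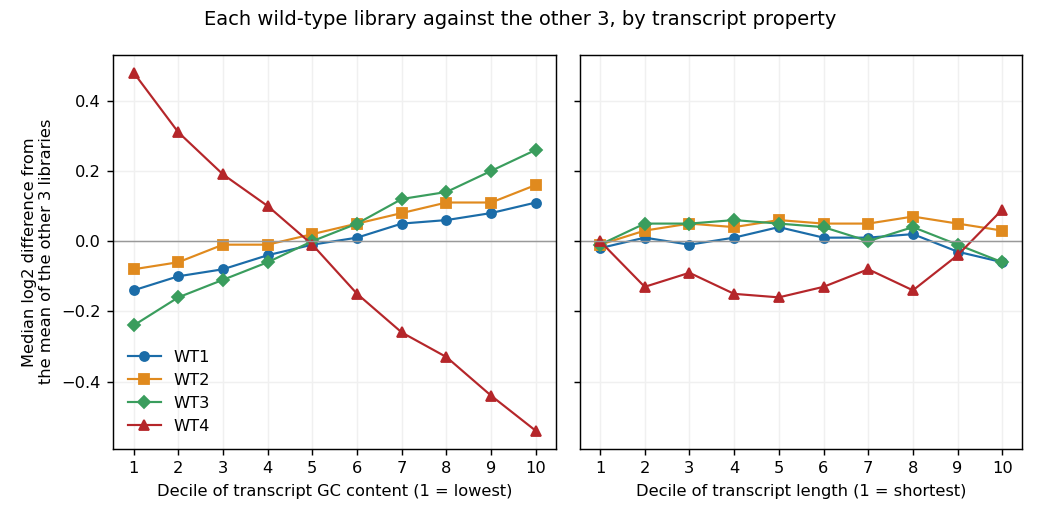
Median log2 difference of each WT library from the mean of the other 3, by decile of transcript GC content (left) and of transcript length (right), over genes with a mean log2 of at least 3. WT4 runs from 0.48 at the lowest GC content to -0.54 at the highest, and no library has a comparable slope over length.

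At the other extreme, the steadiest genes at this level were Glmp, a lysosomal membrane protein, Tmem59, a Golgi protein, Rpp14, a subunit of ribonuclease P, Grn, progranulin, and Pkia, the inhibitor of protein kinase A. Their ranges over all 4 animals were 0.02 to 0.04 log2 units. Glmp shares 1278 exon bases with the annotated gene Tmem79, so its count is uncertain. Pkia had the highest log2 values of the 5 genes, with 9.52, 9.54, 9.50 and 9.53. The ranges of these genes were below or near the SD of 0.02 to 0.10 that counting error gives, as follows from their choice by the smallest range. With the GC trend of each library replaced by the mean trend, the ranges of the same genes became 0.10 to 0.41, 0.40 for Pkia.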

How the data were processed

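Male FVBN WT tibialis anterior RNA was selected with oligo(dT), sequenced as DNA nanoballs, aligned to GRCm38.p6 with HISAT, counted per gene with featureCounts 1.5.2 and scaled by the trimmed mean of M-values (TMM); strandedness of the counting and the gene filter are not given in the sources used here. The authors deposited log2 CPM (reads per 1000000 after scaling), with 0.5 reads added. Whole reads were computed back from these values for every gene in every library (all within 0.001 of a whole number), which gave the depths of 4683853 to 15464499 reads. A second deposited table holds fold changes and p-values of the authors' own comparison and was not used, and the knockout columns entered no value here.

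The mean log2 value of each gene was converted to CPM and to a share of the sum. Shares of classes are also means ± SD over libraries. Transcript length and GC content came from the longest protein-coding transcript, or the longest transcript of a gene without one, of GENCODE vM21 (GRCm38), matched for 12172 of 12239 genes, or 8031 of the 8055 at a mean log2 of at least 3. Spread was the SD and range of log2 values at that level, with a range above 1 called variable, and each library was set against the mean of the other 3. With 1 group no comparison between groups was tested. Values of single libraries were screened with Dixon's critical value, and pairs of libraries were compared by chi-square per gene. Counting SDs assumed Poisson error. Intervals are Wilson at 95% and the floor is 3 reads per library. Promoter windows are RefSeq, 200 bases, searched on both strands.

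Genes named were the 20 most abundant, the most abundant and widest-ranging members (up to 4 each) of the lists described, the 10 of widest range over 4 and over 3 libraries, the 10 farthest above and below in WT4, the 5 steadiest, Mybpc2, fibre-type and cell markers; others are said to be chosen after their values were seen or stand as family members or counter-examples. The gene lists and members were chosen with earlier results of these data known. Alternatives covered scaling, filters, pseudocount, thinning, fold, GC trend and leaving out libraries. The script was tested on simulated data. Python 3.11.15, pandas 2.3.3 and patsy 1.0.2 were used. Values of a few list members are not reported here.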

Additional observations from a re-analysis of the deposited data

Results flagged for a closer look

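Values of a library were set aside for a closer look when the gap between it and its nearest neighbour, divided by the range of the 4 libraries, exceeded Dixon's 95% critical value for 4 samples. Of 160 values tested 28 met this rule, 24 of them in WT4. Chance flags about 1 in 20 groups, but that share does not apply here, since many of the genes were named for a wide range or for a distant WT4. After the GC correction the difference of WT4 went from -0.71 to -0.29 in Eef2.

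WT4 stood apart in its depth of 4683853 reads, in its 75 genes at 0 reads and in its share of phosphagen and adenine nucleotide buffering, 2.2% beside 2.84% to 2.95% in the others. Among abundant transcripts, WT4 was low in A930016O22Rik, with a log2 value of 12.36, and in Eef2, elongation factor 2, with 9.99. It was high in Trdn with 13.29, in the ribosomal protein Rpl4 with 9.81 and in the lipid carrier Fabp4 with 8.48. Of mitochondrial genes, Cox17 had 8.32, Ndufc1 9.31, Cox7b 10.99 and the chaperonin Hspe1 7.21 in WT4, each above the other animals. The small heat shock protein Hspb6 had 10.74 there, beside 9.46 to 9.50 in the others.

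WT4 was also high in Ddit4 (6.55), the transcription factor Cebpb (4.56), Gm12338 (8.90), Hmgn5 (7.41), 1810022K09Rik (7.16), Ccdc73 (5.66), Igfbp7 (8.77) and Rpl37rt (6.11). Cebpb shares 312 exon bases with the annotated gene Tmem189, so its count is uncertain. WT4 was low in Cdh15 (2.75), the minor collagen Col5a3 (2.93) and 1110065P20Rik (1.39).

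The other 4 values were not in WT4. Myh4 was high in WT2, with 15.90 beside 15.40 to 15.45. Tpm2, beta-tropomyosin, was high in WT3, with 12.65 beside 12.32 to 12.36. Mbp, a myelin protein, was high in WT3 with 4.50, and Gm4737 was low there with 2.16.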

How the results depend on the processing

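Among the 137 named genes, no difference of WT4 of over 1 log2 unit reversed under the alternatives run. Smaller differences of WT4 changed sign with the GC correction in 23 of these genes, the largest from -0.42 to 0.17 (Dbp). The counts of variable genes depended on the filter and on WT4. Over the 4 libraries 1695 genes were variable at a mean log2 of at least 3, 3503 at 0, 578 at 5, 3788 without a filter and 4208 with a range above 1.5-fold. Leaving out a library gave 112 to 1588, the lowest without WT4 and 1411 or more otherwise. Over WT1 to WT3 the count of 112 became 445 at a mean of 0, 34 at 5 and 582 without a filter, and 43 to 73 with a library left out. WT4 lay above in 730 genes, and in 1156, 292 and 1205 under those 3 filters. It lay below in 434 genes, in 1241, 93 and 1381 under them, and in 222 after the GC correction. Median centring, quantile normalization and thinning to the smallest depth kept each of these counts within 1.5 times, as did log2(CPM + 1) for the range over the 4 libraries. Per kilobase, the thick and thin filament classes held 24.79%, the sarcoplasmic reticulum 6.82%, glycolysis 7.98%, oxidative phosphorylation 6.67% and cytosolic ribosomal proteins 2.42%, and 72 genes held 50% of the summed level. Of the single genes, the range moved by more than the spread in 166 of 1233 recomputations and the difference of WT4 in 65 of 1096, and the median SD of a list moved in 39 of 455; the cause was not tested. No paired analysis was possible because there is 1 group only.

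At the depth of WT4 a gene at a log2 value of 3 rests on 34.7 reads, which limits what its low genes can show. With 1 library standing apart, its biology and its preparation cannot be told apart, and 4 animals give a coarse estimate of spread.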
